A study of Mus musculus with 6 samples.

Results

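The genes described here are those whose transcripts were measured in wild-type NIH3T3 cells and were nearly or wholly uncounted in the NgBR-overexpressing line. NIH3T3 is an established line of mouse embryo fibroblasts, and NgBR, the Nogo-B receptor, is the product of Nus1 and a subunit of the enzyme that makes dolichol. The members were chosen from the raw counts themselves: a total of at least 100 counts over the 3 wild-type libraries and of at most 3 counts over the 3 libraries labelled NgBR overexpression. Of 11647 genes with a wild-type total of at least 100 counts, 37 (0.318%) met the second limit. Of these, 6 were left out by name (Tgfbi, Lum, Ndn, Epb4.1, Slc6a15 and Ddx3y), which left 31 members of the 35275 genes in the table. Because these counts chose the members, their loss is given as a description and no test is made of it.

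Wild-type cells are labelled as such, with no treatment. The cells of the other group were stably transfected with a plasmid for HA-tagged NgBR and selected with G418, and the sources used here do not say whether they were 1 clone or a pool. Both lines grew in medium with 10% calf serum, and no vector control is among the 6 libraries. The replicates, 3 in each group, are not described as separate cultures, so the spread between them may be technical.

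Total counts ran from 29515072 to 35511769 in the wild-type libraries and from 7369961 to 10358381 in the others, so that the mean depth was 3.50-fold higher in wild type. Levels are given as CPM, the count divided by the TMM-scaled library size and multiplied by 1e+06. Wild-type libraries 1 to 3 held Nus1 at 212, 187 and 233 CPM, and those labelled NgBR overexpression at 184, 185 and 165 CPM. Counts at mouse Nus1 did not rise with the label (log2 fold change -0.24, SE 0.21, edgeR quasi-likelihood adjusted p = 0.786), and transgene reads can have escaped the count at that gene, so the second group is called the labelled libraries throughout. The fibroblast marker list, which holds Vim, Col1a1 and Pdgfrb, summed to between 21800 and 25600 CPM in wild-type libraries and between 22900 and 33200 CPM in the labelled ones. Of its 10 genes, edgeR called 0, also at an unadjusted p under 0.05, and DESeq2 called 0.

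Whether a gene is transcribed in a cell is set by transcription factors at its promoter and enhancers and by marks on its chromatin, among them methylation of CpG and the Polycomb mark. Fibroblast lines transcribe many genes at low levels that are better known from brain, muscle or gland, and a gene without reads is silent only down to the depth of sequencing. In these bulk libraries, fewer cells with a transcript and less transcript per cell cannot be told apart.

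All 31 members are protein-coding genes in the GENCODE annotation of mm10, the build in the submitters' processing notes. They lay on 14 autosomes and the X chromosome. The nearest pair, Lmod1 and Kif21b on chromosome 1, were 0.763 Mb apart, and the next, Sh3bgrl2 and Fam46a on chromosome 9, were 1.68 Mb apart. The members therefore did not form 1 block of the genome.

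The start sites of the members differed widely in base composition. A RefSeq promoter sequence was found for 23 of the 31 members (74.2%) and for 75.3% of the genes tested, under the 80% set for a comparison, so a check of promoter composition against other genes is void and none is reported. Within the 23, the 250 bases before the start held between 3 and 35 CpG dinucleotides and between 40.8% and 74.8% G and C. The bases before the starts of 4 members with 0 counts in the labelled libraries are shown as examples from richer to poorer in CpG, written 5′ to 3′ on the gene's strand from RefSeq on GRCm38.p6, with each CpG in capitals.
Rgs17: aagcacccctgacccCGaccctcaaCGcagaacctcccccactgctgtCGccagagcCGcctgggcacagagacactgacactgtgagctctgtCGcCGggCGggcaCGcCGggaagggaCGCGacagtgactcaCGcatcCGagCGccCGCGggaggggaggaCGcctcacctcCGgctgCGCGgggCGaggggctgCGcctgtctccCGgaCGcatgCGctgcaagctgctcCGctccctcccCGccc
Slc35g1: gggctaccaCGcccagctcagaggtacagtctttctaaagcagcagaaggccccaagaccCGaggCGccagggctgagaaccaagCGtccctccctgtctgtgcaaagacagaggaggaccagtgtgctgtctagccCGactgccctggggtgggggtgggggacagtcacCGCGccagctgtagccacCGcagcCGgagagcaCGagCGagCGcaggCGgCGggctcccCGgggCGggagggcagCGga
Mdfi: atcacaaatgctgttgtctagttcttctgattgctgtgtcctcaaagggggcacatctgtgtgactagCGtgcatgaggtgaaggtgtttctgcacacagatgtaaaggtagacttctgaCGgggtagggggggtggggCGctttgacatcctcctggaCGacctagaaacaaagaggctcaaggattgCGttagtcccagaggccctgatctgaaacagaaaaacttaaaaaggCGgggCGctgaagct
Asb4: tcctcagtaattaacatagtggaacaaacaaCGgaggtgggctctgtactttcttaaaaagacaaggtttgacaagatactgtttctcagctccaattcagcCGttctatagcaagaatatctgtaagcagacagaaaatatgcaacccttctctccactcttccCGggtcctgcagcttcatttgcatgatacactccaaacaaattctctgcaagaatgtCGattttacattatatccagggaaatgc
The Rgs17 stretch (chr10:5922401-5922650, minus strand) held 27 CpG dinucleotides and the Slc35g1 stretch (chr19:38395730-38395979, plus strand) 17. The Mdfi stretch (chr17:47834692-47834941, minus strand) held 7 and the Asb4 stretch (chr6:5383136-5383385, plus strand) 4. These 4 genes were picked to differ in CpG, and whether CpG content went with the loss of counts was not tested.

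Transcripts of the members were of low abundance in wild-type cells. Their wild-type means lay between 1.06 and 6.98 CPM, with a median of 2.04 CPM, against a median of 27.4 CPM over the 12651 genes tested. Per kilobase of exon, which allows levels of different genes to be compared, the median member was at 0.450 CPM per kb and the median tested gene at 6.16 CPM per kb. Phyh had the highest level per length, 2.60 ± 0.398 CPM per kb (SD, n = 3). It was followed by Irak3 at 1.54 ± 0.253 and by Soat2 at 1.47 ± 2.29 CPM per kb, where the spread is larger than the mean. Mab21l2 (1.15 ± 0.224), Rasl10b (1.04 ± 0.106) and Larp6 (1.0 ± 0.215 CPM per kb) came next and did not differ from each other beyond their spread. Among the lowest per length were Kif21b (0.137 ± 0.161) and Sorbs2 (0.0417 ± 0.0249 CPM per kb), whose annotated exons are long.

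In the labelled libraries, 11 members had 0 counts, 7 had 1, 6 had 2 and 7 had 3, as the rule allows. The 40 counts of all members together fell as 7, 12 and 21 in labelled libraries 1 to 3, so that no single library held them. At the wild-type level, the depth of the labelled libraries would have given 2265 counts over the members, and at least 28.9 counts for each of them. These figures, and those for groups of members below, pool the 3 wild-type libraries. For Soat2, Extl1, Kif21b and Sh3bgrl2 they rest mostly on library 2, which held 93.4%, 89.1%, 78.6% and 78.2% of their wild-type CPM. A total of 3 counts over the labelled libraries corresponds to 0.108 CPM, and a gene with 0 counts is bounded by that level and not shown to be absent. Bounds on fold differences below take the wild-type level as measured and allow only for counting error in the labelled libraries. The intervals below cover counting error in both groups and nothing else.

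**Figure D1:**
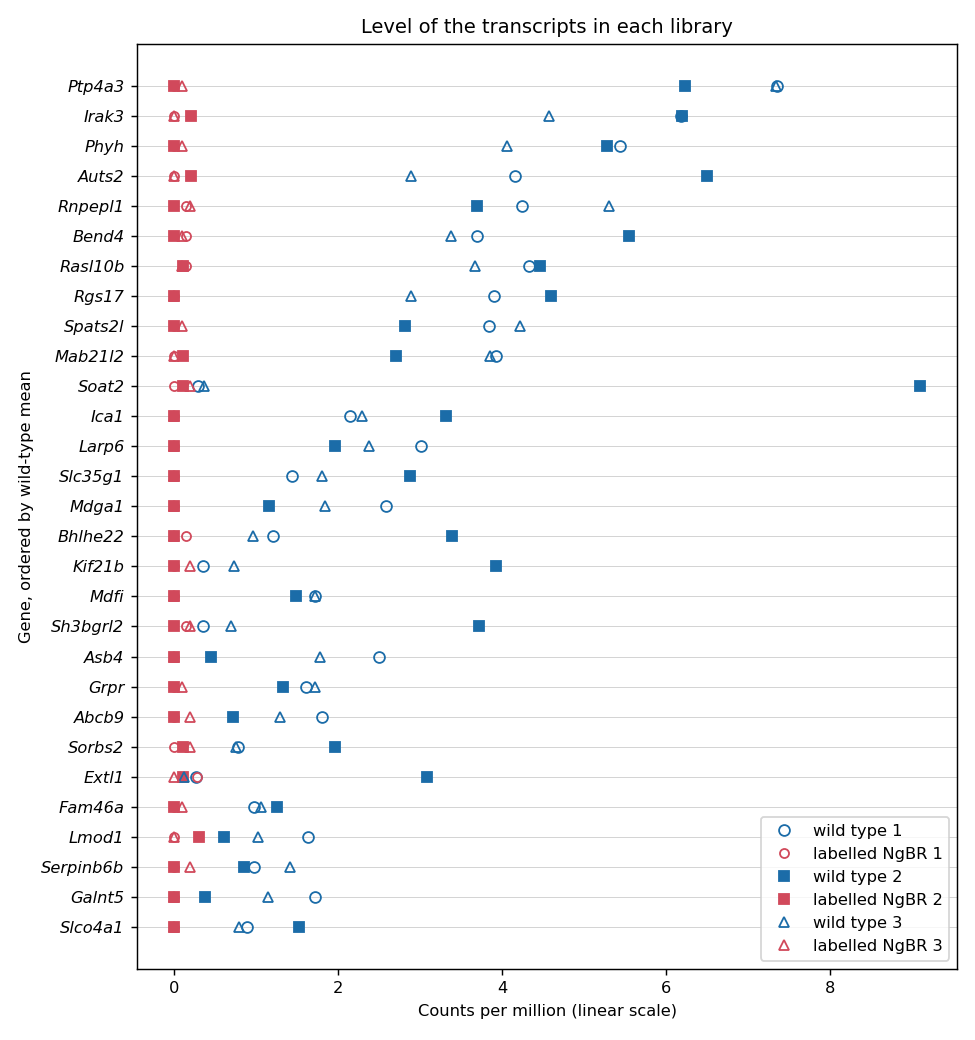
Level of 29 of the members in each of the 6 libraries, in CPM on a linear axis, with wild-type libraries in blue, labelled libraries in red and library 2 of each group as filled squares. Wild-type points lie to the right of the red ones for 28 of the 29 genes, while for Extl1 wild-type library 3 lies below labelled library 1. Soat2, Extl1, Kif21b and Sh3bgrl2 have 1 distant point, wild-type library 2.

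**Figure D2:**
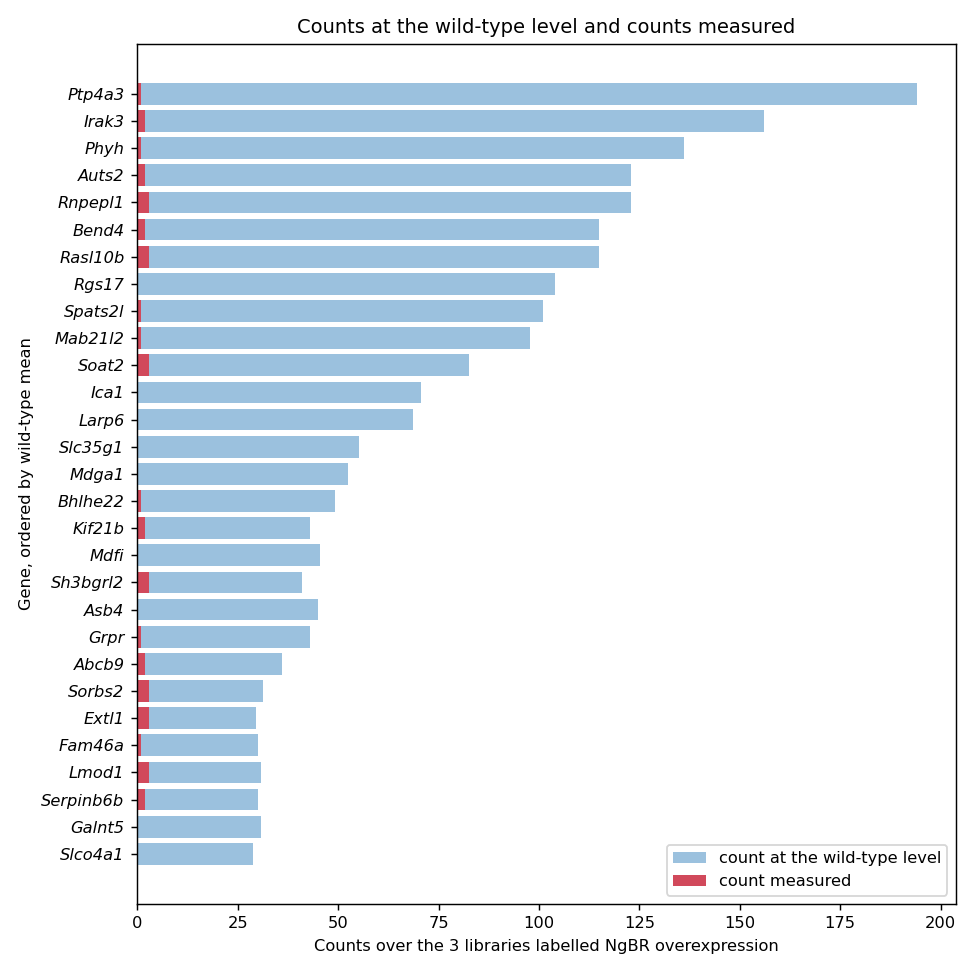
Counts over the 3 labelled libraries for the same 29 members: the pale bar is the count that the wild-type level would give at their depth and the red bar the count measured. The pale bars run from 28.9 to 194 counts and no red bar exceeds 3.

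The wild-type and labelled CPM ranges were separate, with wild type higher, for 30 of the 31 members, and for 9.37% of all genes tested. Choosing members by their group totals makes such separation likely without forcing it, so nothing is read from it. The exception was Extl1, with 9, 91 and 4 wild-type counts by library and 2, 1 and 0 labelled ones. On the CPM scale its wild-type values were 0.258, 3.08 and 0.120, below 0.281 in labelled library 1 in 2 of the 3. Of the 31 members, 25 passed edgeR's filter on low counts, and they could pass it only through the wild-type libraries. Of these, 23 were called lower at an adjusted p under 0.05, beside 1.35% of all genes tested, and nothing is read from this share because the rule used the same contrast. The 2 members tested and not called were Sorbs2 and Lmod1. Soat2, Kif21b, Sh3bgrl2, Asb4, Extl1 and Galnt5 were below the filter.

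The 5 signalling genes, Ptp4a3, Irak3, Rasl10b, Rgs17 and Grpr, had 7 counts in the labelled libraries where the wild-type level would give 612. Ptp4a3 (chr15:73723145-73758766, plus strand) encodes PRL-3, a prenylated phosphatase of the cell membrane. It was at 7.36, 6.23 and 7.35 CPM over wild-type libraries 1 to 3, with 0, 0 and 1 counts in labelled libraries 1 to 3. Its wild-type libraries were close to each other and all far above the labelled ones, a pooled ratio of 194 with a 95% counting interval of 34.7 to 7682. Its relatives Ptp4a1 and Ptp4a2, which encode the other PRL phosphatases, were counted in both groups. Ptp4a2 was at 535 ± 103 and 609 ± 157 CPM (SD, n = 3; edgeR adjusted p = 0.912) and Ptp4a1 at 68.6 ± 17.1 and 42.3 ± 8.04 CPM (edgeR adjusted p = 0.286), in wild-type and labelled libraries.

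Irak3 (chr10:120141648-120202130, minus strand) encodes IRAK-M, a member of the IL-1 receptor-associated kinase family that restrains Toll-like receptor signalling. It was at 6.19, 6.19 and 4.58 CPM over wild-type libraries 1 to 3, and its 2 labelled counts both lay in library 2, a pooled ratio of 78.1 (95% interval 21.5 to 647). The kinase genes Irak1, at 107 ± 10.0 and 92.3 ± 9.04 CPM (edgeR adjusted p = 0.818), and Irak4, at 18.2 ± 0.732 and 19.6 ± 1.27 CPM (edgeR adjusted p = 0.938), were not called. Tmbim4, which overlaps Irak3 on the other strand, was at 34.1 CPM in wild-type and 28.3 CPM in labelled libraries and was not called (edgeR adjusted p = 0.787).

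Regulators of G proteins and a Ras-like protein were also among the members. Rgs17 (chr10:5825663-5922400, minus strand), which encodes a protein that speeds GTP hydrolysis by G-alpha subunits, was at 3.90, 4.6 and 2.89 CPM over wild-type libraries 1 to 3 and had 0 counts in all labelled libraries, at least 34.8-fold lower. Among its relatives, Rgs2 (134 ± 6.29 and 102 ± 31 CPM; edgeR adjusted p = 0.676) and Rgs16 (62.4 ± 20.6 and 27.3 ± 17.5 CPM; edgeR adjusted p = 0.312) were the most abundant in wild type and were not called. Rasl10b (chr11:83409137-83421039, plus strand), a small GTPase gene, was at 4.32, 4.47 and 3.67 CPM over wild-type libraries 1 to 3 and had 1 count in each labelled library, a pooled ratio of 38.3 (95% interval 13 to 186). Its wild-type libraries differed little and its labelled counts were even.

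Both tested relatives of Rasl10b fell as well. Rasl11a was at 77.0 ± 40.9 CPM in wild-type and 19 ± 6.74 CPM in labelled libraries (log2 fold change -2.01, SE 0.41, edgeR adjusted p = 0.0293). Rasl11b was at 5.91 ± 0.415 and 1.64 ± 0.454 CPM (edgeR log2 fold change -1.83, SE 0.32, adjusted p = 0.0158). Rasl10b itself was at 3 labelled counts in all. Grpr, the receptor of gastrin-releasing peptide, was at 1.60, 1.32 and 1.72 CPM over wild-type libraries 1 to 3 and had 1 count in labelled library 3.

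Genes of transcription and development were the next group, with 6 counts in the labelled libraries for Auts2, Bend4, Mab21l2, Bhlhe22 and Mdfi where the wild-type level would give 431. Auts2 (chr5:131437333-132543344, minus strand) encodes a nuclear protein of the developing brain that associates with Polycomb complexes. It was at 4.15, 6.50 and 2.89 CPM over wild-type libraries 1 to 3 and had 2 counts in labelled library 2, a pooled ratio of 61.4 (95% interval 16.9 to 508). Wild-type library 2 was the highest and library 3 the lowest, 2.25-fold apart. Bend4 (chr5:67392147-67428310, minus strand), which encodes a BEN-domain protein, was at 3.69, 5.55 and 3.37 CPM over wild-type libraries 1 to 3 and had 1, 0 and 1 counts in the labelled ones. Its relative Bend3 was at 37.7 ± 3.27 and 31.2 ± 14.1 CPM and Bend6 at 7.70 ± 0.825 and 8.72 ± 2.43 CPM, and neither was called (edgeR adjusted p = 0.846 and 0.916).

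Mab21l2 (chr3:86545581-86548629, minus strand), a gene of eye and body-wall development, was at 3.92, 2.71 and 3.85 CPM over wild-type libraries 1 to 3 and had 1 count in labelled library 2. It lies within Lrba on the opposite strand. Lrba itself was at 48.3 and 52.1 CPM in wild-type and labelled libraries (edgeR adjusted p = 0.970), so the host gene was counted at like levels where Mab21l2 was nearly uncounted. The strand setting of the counting is not given, and reads of the 2 genes in shared exons cannot be told apart. The related gene Mab21l1 was at 11.0 ± 6.15 and 6.69 ± 2.19 CPM and was not called (edgeR adjusted p = 0.674).

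Mdfi, an inhibitor of MyoD-family factors, had one of the narrowest wild-type ranges of the members, 1.72, 1.49 and 1.72 CPM in libraries 1 to 3, and 0 labelled counts. Bhlhe22, a neural basic helix-loop-helix repressor, was uneven in wild type, with 1.20, 3.38 and 0.963 CPM in libraries 1 to 3 and 1 count in labelled library 1. Both tested genes that share the symbol root of Bhlhe22 rose, and a shared root does not measure how closely genes are related. Bhlhe23, of the same root, had 0 counts in every library. Bhlhe40, which encodes a repressor tied to the circadian clock, was at 18.5 ± 3.96 and 89.2 ± 30.7 CPM (edgeR log2 fold change 2.27, SE 0.31, adjusted p = 0.00402). Bhlhe41, its close paralog, was at 9.03 ± 2.20 and 57.4 ± 23.8 CPM (edgeR log2 fold change 2.67, SE 0.34, adjusted p = 0.00304).

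Transporter genes were members too, and of those described here Slc35g1 and Slco4a1 had 0 labelled counts and Abcb9 had 2, both in library 3. Slc35g1 (chr19:38395980-38405610, plus strand), a solute carrier gene, was at 1.43, 2.88 and 1.81 CPM over wild-type libraries 1 to 3, at least 18.4-fold higher than in the labelled ones. Wild-type library 2 was its highest. Slco4a1, an organic anion transporter, was at 0.888, 1.52 and 0.783 CPM, and Abcb9, a lysosomal peptide transporter, at 1.80, 0.711 and 1.29 CPM over wild-type libraries 1 to 3.

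Among the enzymes, Phyh (chr2:4919019-4938730, plus strand) encodes phytanoyl-CoA hydroxylase, which starts the peroxisomal breakdown of phytanic acid. It was at 5.44, 5.28 and 4.06 CPM over wild-type libraries 1 to 3 and had 1 count in labelled library 3, a pooled ratio of 136 (95% interval 24.4 to 5398). Rnpepl1 (chr1:92910783-92924384, plus strand), which encodes an aminopeptidase-like protein, was at 4.24, 3.69 and 5.30 CPM over wild-type libraries 1 to 3 and had 1, 0 and 2 labelled counts. Both were measured evenly over the wild-type libraries. Galnt5, which starts O-linked glycans, was at 1.72, 0.372 and 1.14 CPM over wild-type libraries 1 to 3 and had 0 labelled counts, while its relatives Galnt1 (112 ± 14.4 and 112 ± 12.5 CPM) and Galnt10 (58.0 ± 3.04 and 57.6 ± 10.8 CPM) were not called (edgeR adjusted p = 0.998 and 0.995).

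Soat2 (chr15:102150526-102163469, plus strand), which encodes the cholesterol-esterifying enzyme ACAT2, was a member because of 1 library. It had 10, 269 and 12 counts by wild-type library (0.286, 9.10 and 0.361 CPM) and 0, 1 and 2 counts by labelled library. Library 2 thus held 93.4% of its summed wild-type CPM, and without it Soat2 was below 100 wild-type counts. Its relative Soat1, the widely expressed enzyme of the same reaction, was at 143 ± 41.6 and 202 ± 62.2 CPM and was not called (edgeR adjusted p = 0.636). Extl1, a glycosyltransferase gene of the heparan sulfate family, rested on the same library, which held 89.1% of its wild-type CPM. Its relatives Extl3 (145 ± 23.8 and 132 ± 33.2 CPM) and Extl2 (35.7 ± 5.12 and 30.9 ± 7.08 CPM) were not called (edgeR adjusted p = 0.930 and 0.862).

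The members that act on RNA were Larp6 and Fam46a. Larp6 (chr9:60712989-60738801, plus strand) encodes a protein that binds the messenger RNAs of type I collagen. It was at 3.01, 1.96 and 2.38 CPM over wild-type libraries 1 to 3 and had 0 labelled counts, at least 22.9-fold lower. The related genes Larp1 (498 ± 165 and 423 ± 121 CPM) and Larp4 (154 ± 55.2 and 144 ± 23.3 CPM) were not called (edgeR adjusted p = 0.897 and 0.965). Fam46a, a poly(A) polymerase gene now named Tent5a, was at 0.974, 1.25 and 1.05 CPM over wild-type libraries 1 to 3 and had 1 labelled count, in library 3.

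Genes of the cytoskeleton and of vesicles were Ica1, Kif21b, Sorbs2 and Lmod1, with 8 labelled counts where the wild-type level would give 176. Ica1 (chr6:8630527-8778488, minus strand), which encodes a BAR-domain protein of secretory vesicles first known as an islet autoantigen, was at 2.15, 3.32 and 2.29 CPM over wild-type libraries 1 to 3 and had 0 labelled counts, at least 23.5-fold lower. Kif21b, a kinesin of neurons and lymphocytes, was at 0.344, 3.92 and 0.722 CPM over wild-type libraries 1 to 3 and had 2 counts in labelled library 3. Most of its wild-type signal was in library 2. Sorbs2, an actin-linked adaptor, was at 0.773, 1.96 and 0.752 CPM and had 0, 1 and 2 labelled counts. Lmod1, a leiomodin of smooth muscle, was at 1.63, 0.609 and 1.02 CPM over wild-type libraries 1 to 3, and its 3 labelled counts all lay in library 2.

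The other 5 members were placed in none of the groups above. Spats2l (chr1:57774162-57948394, plus strand) was at 3.84, 2.81 and 4.21 CPM over wild-type libraries 1 to 3 and had 1 count in labelled library 3, a pooled ratio of 101 (95% interval 18.1 to 4009). Its relative Spats2 was at 52.2 ± 8.43 and 87.5 ± 17.1 CPM and was not called (edgeR adjusted p = 0.187). Mdga1, a membrane-anchored adhesion protein that binds neuroligins, was at 2.58, 1.15 and 1.84 CPM over wild-type libraries 1 to 3 and had 0 labelled counts. Sh3bgrl2 was at 0.344, 3.72 and 0.692 CPM and had 1, 0 and 2 labelled counts. Serpinb6b, from a family of intracellular protease inhibitors with close paralogs between which reads could be split, was at 0.974, 0.846 and 1.41 CPM and had 2 counts in labelled library 3.

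Asb4, an ankyrin-repeat gene of an imprinted cluster on chromosome 6, was at 2.49, 0.440 and 1.78 CPM over wild-type libraries 1 to 3 and had 0 labelled counts. Library 2 was its lowest, 5.66-fold under the highest. Of the other imprinted genes on a list of 62, where imprinting means expression from the copy of 1 parent, 35 were tested, and Mirg, H19, Meg3, Rian and Ndn fell while 0 rose (edgeR; at an unadjusted p under 0.05, 10 lower and 1 higher, and by DESeq2 7 lower and 0 higher). The 5 lower calls are 14.3% of the 35, beside 1.35% of all genes tested. Ndn met the limits of the rule itself and was left out only by name, so its fall adds nothing to what the rule found. Meg3, Rian and Mirg lie at 1 locus. The median log2 fold change of the 35 was -0.26, against -0.01 over all genes tested. Pon2 and Pdk4, the genes on either side of Asb4, were at 20.7 ± 3.65 and 13.2 ± 3.74 CPM and at 40.9 ± 7.14 and 41.7 ± 4.38 CPM and were not called (edgeR adjusted p = 0.433 and 0.990).

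Wild-type library 2 differed from libraries 1 and 3 also in a measure summed over genes, and not only for members. Chi-square per degree of freedom, which measures difference beyond sampling noise, was 239.5 between libraries 1 and 2. It was 259.6 between libraries 2 and 3, and 27.69 between libraries 1 and 3. Between labelled libraries it was 83.88 for 1 and 2, 65.88 for 1 and 3, and 133.6 for 2 and 3. The measure grows with depth and weighs highly counted genes most, so it does not show how many genes differed. Among the members, wild-type library 2 stood apart for a subset. Its level was over 3-fold that of the mean of libraries 1 and 3 for 5 members (16.1%): Soat2 (28.1-fold), Extl1 (16.3-fold), Kif21b (7.36-fold), Sh3bgrl2 (7.19-fold) and Bhlhe22 (3.12-fold). The same held for 50 of 2046 other genes (2.44%) with a wild-type total of at least 100 counts and a mean in the same CPM range. For Asb4 and Galnt5, library 2 was under that mean by more than 3-fold, as it was for 3.18% of the other genes. No test was made of these shares. The median coefficient of variation over the wild-type libraries was 27.7% for the members and 22.3% for the other genes. For 18 members the highest and the lowest wild-type library were less than 2-fold apart. Without wild-type library 2, 11 members had fewer than 100 wild-type counts, the first 5 named here among them, and 20 remained. Without wild-type library 1 also 11 did, and without library 3 it was 8.

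**Figure D3:**
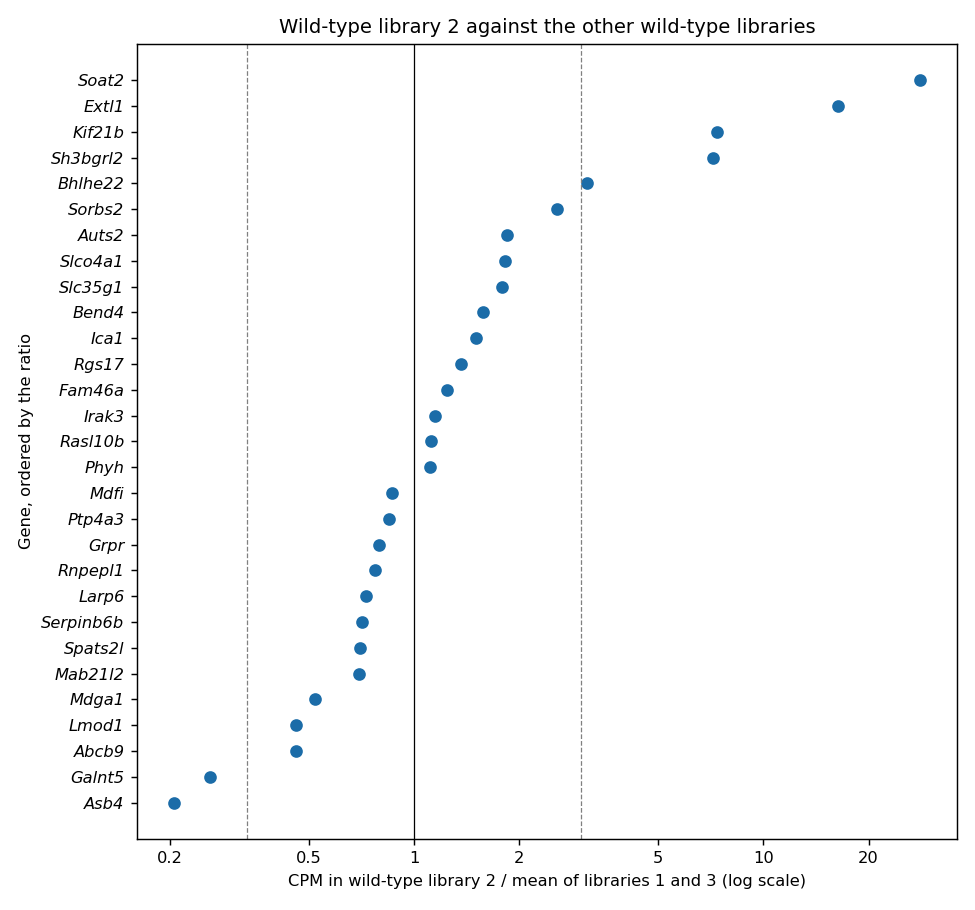
Ratio of the CPM in wild-type library 2 to the mean of wild-type libraries 1 and 3 for the same 29 members, on a log axis, with dashed lines at a 3-fold difference in either direction. Soat2, Extl1, Kif21b, Sh3bgrl2 and Bhlhe22 lie above the upper line, at 28.1 to 3.12, and Galnt5 and Asb4 below the lower one.

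Of the genes next to the members, those tested were mostly not called, and the untested ones had few or no counts. The nearest protein-coding gene on each side gave 62 neighbours, of which 40 were tested. Of these, 2 fell (5.0%, beside 1.35% of all genes tested) and 0 rose by edgeR. At an unadjusted p under 0.05, 4 were lower and 0 higher, and by DESeq2 3 were lower and 0 higher. The median log2 fold change of the 40 was -0.08. One of those that fell was Shisa4, 2.99 kb from Lmod1. It was at 59.7 ± 1.40 and 31 ± 3.49 CPM (edgeR log2 fold change -0.94, SE 0.20, adjusted p = 0.0363). Neighbours that were not called could still differ in either direction. Elovl4, next to Sh3bgrl2, was at 5.98 ± 3.06 and 1.93 ± 0.229 CPM (edgeR log2 fold change -1.62, SE 0.42, adjusted p = 0.0831). Glcci1, next to Ica1, was at 1.99 ± 0.379 and 3.73 ± 2.69 CPM (edgeR log2 fold change 0.92, SE 0.49, adjusted p = 0.545).

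Some members lay very close to a gene that was counted in both groups. Igfbp6, 1.01 kb from Soat2, was at 263 ± 79.5 and 251 ± 63.1 CPM (edgeR adjusted p = 0.976). Mtrf1l, 1.75 kb from Rgs17, was at 8.35 ± 1.69 and 7.96 ± 1.20 CPM (edgeR adjusted p = 0.973), and Ap2b1, 4.1 kb from Rasl10b, at 312 ± 45.1 and 340 ± 121 CPM (edgeR adjusted p = 0.95). These 3 were chosen after their values were seen, as near genes that were counted and not called. Other near genes, such as Gas2l2 0.863 kb from Rasl10b, were at or close to 0 counts in both groups, and Shisa4 fell.

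Relatives that share a member's symbol root were likewise mostly not called. The 178 such genes, from 24 families, gave 100 tested genes, of which 3 fell (3.0%) and 2 rose (2.0%), beside 1.35% and 2.04% of all genes tested. Rasl11a, Rasl11b, Bhlhe40 and Bhlhe41 were among them. Enzymes of DNA methylation and of the Polycomb complexes, a list of 29 that were all tested, had 0 genes called by edgeR (1 lower and 4 higher at an unadjusted p under 0.05, and by DESeq2 0 lower and 1 higher), with a median log2 fold change of 0.16.

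**Figure D4:**
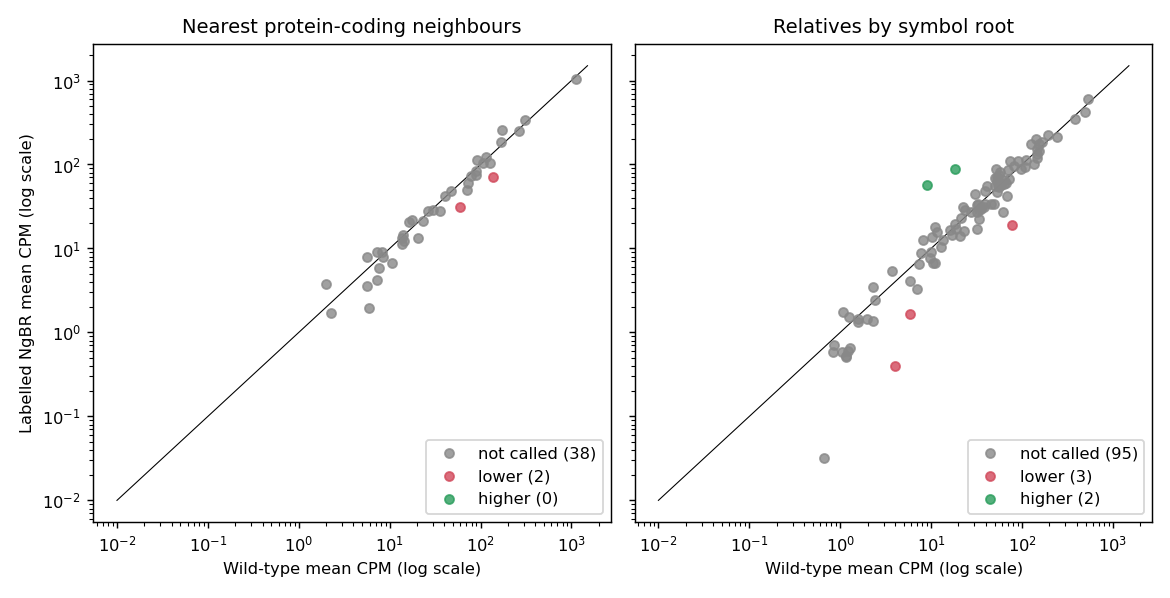
Mean CPM over the 3 labelled libraries against the mean over the 3 wild-type libraries for tested neighbours (left) and tested relatives (right) of the members, both axes on a log scale, with the line of equality. Grey points were not called by edgeR, red ones were lower (2 and 3) and green ones higher (0 and 2), and most points lie along the line.

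Markers of other cell types were low in both groups. Epithelial markers summed to between 0.169 and 0.301 CPM in wild-type and between 0.297 and 0.982 CPM in labelled libraries, and 2 of the 6 were at 0 in every library. Endothelial, leukocyte, skeletal muscle and adipocyte lists summed to at most 2.58, 4.06, 0.963 and 2.11 CPM in wild-type and at most 4.07, 3.44, 2.97 and 3.65 CPM in labelled libraries, with 1 leukocyte and 2 skeletal muscle markers at 0 in all 6. Each of these 4 lists had 1 tested gene and 0 calls by edgeR and by DESeq2, with the skeletal muscle gene Des higher at an unadjusted p under 0.05. The 5 neural markers summed to between 7.41 and 9.84 CPM in wild-type and between 10.1 and 24.3 CPM in labelled libraries, and of 4 tested Syt1 rose by edgeR. At an unadjusted p under 0.05, and also by DESeq2, 2 neural markers were higher. Map2, one of the 4, was at 2.66 and 7.99 CPM in wild-type and labelled libraries (edgeR adjusted p = 0.0562). Over the 7 cell type lists, edgeR called 0 genes lower, also at an unadjusted p under 0.05, and DESeq2 called 0 lower.

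The limits of the rule divide a continuous range. Just inside it were Slco4a1, Extl1 and Fam46a, with 102, 104 and 106 wild-type counts. Just outside were Mtap7d3 with 95 wild-type and 0 labelled counts, Cox6a2 with 85 and 2, and Thnsl2 with 82 and 3. On the other limit, 19 genes had 4 to 6 labelled counts. The 3 of them with the highest wild-type totals were Gas6 (2377 wild-type and 6 labelled counts), Phactr2 (1491 and 5) and E130012A19Rik (655 and 4), all with higher wild-type totals than most members. The number of members was 72 with a minimum of 50 wild-type counts and 15 with a minimum of 200. It was 9 when the wild-type totals were first scaled to the depth of the labelled libraries. Without labelled library 3 it was 52, and without wild-type library 1 or 2 it was 20.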

How the data were processed

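RNA was sequenced from 3 wild-type and 3 NgBR-labelled NIH3T3 libraries. The authors deposited raw counts per gene, as whole numbers that were not normalized. HISAT2 2.0.5, featureCounts 1.5.0-p3 and mm10 are named in the submitters' processing notes. Annotation release, strand setting and filters were not given in the sources used here. Overlapping genes and close paralogs can therefore share reads.

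The members were taken from raw count totals. CPM used TMM-scaled library sizes. The 12651 of 35275 genes that passed filterByExpr were tested with edgeR 4.0.16 in R 4.3.3 (quasi-likelihood test, Benjamini-Hochberg adjusted p under 0.05). The fit was checked on simulated data. Bounds set the wild-type level as measured, without its error, against 3 counts over the labelled libraries. Ratios of pooled counts have exact 95% intervals. Positions and exonic lengths come from GENCODE M21 (97.8% of identifiers matched), and start-site sequences from RefSeq.

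Members with a wild-type mean of at least 2 CPM are given in every library with positions, the others more briefly, and 2 members are not reported here by name. Relatives share a symbol root in families of at most 40 genes. The members and lists were chosen with earlier results of these data known. Alternatives were DESeq2 1.42.0, other scaling factors and filters, a replicate block, other limits and leaving out each library. Wild-type and labelled replicates differed by more than sampling noise.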

Additional observations from a re-analysis of the deposited data

How the results depend on the processing

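Genes called lower numbered 171. They were 302 without a filter on low counts, 263 by DESeq2, and between 84 and 165 with each library left out. The count was 109 when wild-type library 1 was left out, 84 for labelled library 1 and 102 for labelled library 3. With the replicate number as a block they were 301. Same-numbered libraries of the groups had correlations of 0.0147, 0.341 and 0.434 in their deviations from the group means. Differently numbered libraries had correlations between -0.399 and 0.189. The labels do not say whether the numbers pair the libraries, and a shared batch by number was not tested. The members called lower were 23 of 25 tested, and 24 with the replicate block. With each library left out they numbered between 18 and 21. Without labelled library 1, 2 or 3 they were 18 of 30 tested in each case, a smaller share.

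The number of members was 31. It was 72 and 15 with minimums of 50 and 200 wild-type counts, 11 with 0 labelled counts and 80 with at most 10. It was 9 with wild-type totals scaled to the labelled depth. With each library left out it was between 20 and 52: 20 without wild-type library 1 or 2, and 52 without labelled library 3. The median wild-type level was between 2.13 and 2.32 CPM without each wild-type library. Soat2 was at 3.25 CPM in wild type and at 0.324 CPM without wild-type library 2.

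At the pooled depth of the labelled libraries, the limit of 3 counts corresponds to 0.108 CPM, the level used to bound members with 0 counts.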
